A study of Mus musculus with 4 samples.

Results

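PIM kinases and SOCS proteins are 2 groups of genes that T-cells switch on when cytokine receptors activate STAT transcription factors, and 9 of them were compared here between IL-10+ and IL-10− Tregs: Pim1, Pim2, Pim3, Cish, Socs1, Socs2, Socs3, Socs5 and Socs7. Every probe set that the annotation of the array maps to 1 of these symbols alone was taken, which gave 23 of the 45101 probe sets, 6 for the PIM kinases and 17 for Cish and the SOCS genes. The genes were picked with this comparison already known, so their differences are given as a description and not as a test.

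Cytokine receptors signal through JAK kinases, which phosphorylate STAT factors that enter the nucleus. PIM kinases are serine/threonine kinases without a regulatory subunit, so their activity follows their amount, and they promote survival, protein synthesis and cell cycle entry. Cish and the SOCS proteins bind phosphorylated receptors or JAKs and dampen the same signal, and through their SOCS box they recruit a ubiquitin ligase. In Tregs, IL-2 acting through STAT5 is a main inducer of Cish, Socs2 and Pim1, while Socs3 is best known as a brake on receptors that use gp130 and STAT3.

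The cells came from lymph nodes of C57BL/6 mice aged 6 to 12 weeks, 3 days after all of them had been injected with the superagonistic CD28 antibody CD28SA. CD4+CD25+ T-cells were cultured overnight in the presence of IL-2 (200 U/ml) and of antibodies to CD3 (2 µg/ml) and CD28 (5 µg/ml). They were then stained for IL-10 and sorted, which gave 2 IL-10+ samples (replicates 1 and 2) and 2 IL-10− samples (replicates 3 and 4), each on 1 Affymetrix mouse genome array. Both groups therefore came from culture with the same concentrations of IL-2 and antibodies, while the signal that the cells of each group received was not measured. CD25 stood in for Foxp3 as the Treg marker. How many mice were pooled, and whether replicates are different animals, is not stated in the labels, so the spread between samples may be technical. Values are the deposited ones, read as log2, and each difference is IL-10+ minus IL-10−. Standard errors are limma's, which draw the variance of each probe set towards that of all probe sets. They can therefore be smaller or larger than the printed SDs imply. The probe set of a gene with the highest mean over the 4 arrays is called the brightest. The median over all 45037 probe sets tested was 6.37.

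Il10, whose product defined the sort, stood at 12.02 and 12.00 in IL-10+ and at 10.41 and 10.37 in IL-10− samples. Medians of the arrays ran from 6.31 to 6.41, and Pearson's r across probe sets was 0.998 and 0.996 within and 0.973 to 0.976 between groups. Of 9 T-cell and Treg markers, 3 rose and 2 fell in IL-10+ cells, with Ctla4, an inhibitory receptor, at 0.87 and Foxp3, the lineage factor of Tregs, at -0.72. Markers of B cells and plasma cells were not absent and moved with the groups. Of 6 B cell markers 5 fell, with the log2 of their summed level at 9.17 to 9.22 in IL-10+ and 10.75 on both arrays of IL-10− samples. Of 6 plasma cell markers 4 fell while 1 rose, with 12.97 to 12.98 against 13.88 to 13.98. Most of this sum in IL-10+ samples came from Xbp1 (12.33, against 12.36 in IL-10−) and Prdm1 (11.22 against 10.83). Igha stood at 7.21 against 12.66, Jchain at 7.70 against 10.44, Mzb1 at 6.44 against 9.19 and Sdc1 at 6.34 against 6.65. NK cell markers had 2 of 5 lower (8.33 on both arrays against 8.64 to 8.65), CD8 T-cell markers 1 of 2 lower (8.25 to 8.32 against 8.45 to 8.58), and myeloid markers 2 of 6 higher and 1 lower (9.15 to 9.22 against 9.23 to 9.28). In the B cell, NK cell and myeloid lists, 3 markers each lay below the median level of all probe sets. For 4 spiked-in bacterial transcripts, the probe sets at the upstream end were higher in IL-10+ samples by 0.62 to 1.96 (median 1.11), while at the downstream end the median was 0.09. The part of these other cells and of RNA ends in the results below was not tested, and in such bulk samples fewer cells of a type and less RNA per cell cannot be told apart.

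Of the 23 probe sets, 3 passed an adjusted p under 0.05 from limma upwards in IL-10+ cells and 9 downwards. Over all probe sets 13.6% passed upwards and 16.2% downwards, 29.8% together, and since the genes were picked on this contrast nothing is read from the comparison. Of the 23, 20 lay at or above the median level of all probe sets, so all probe sets are not a like background. With dimmer probe sets left out, 5014 of 22519 rose and 7151 fell, and 4 and 10 of these 20 did. At an adjusted p under 0.001 and a difference of at least 1, 2 of the 23 passed upwards and 2 downwards. Of all probe sets 1.72% and 0.575% did. The IL-10+ arrays did not overlap the IL-10− arrays for 17 of the 23 probe sets, 7 with IL-10+ higher and 10 with IL-10+ lower, against 63.0% of all probe sets (32.5% and 30.5%). Counting only the brightest probe set of each of the 9 genes, 2 passed upwards and 4 downwards, against 8.37% and 22.9% of all 18193 genes (31.3% together). All 9 of these were without overlap, 4 with IL-10+ higher and 5 with IL-10+ lower, as were 64.4% of all genes (26.6% and 37.8%). Their median difference was -0.19, against -0.01 over those of all genes, and the range ran from -1.12 for Socs3 to 2.09 for Pim1. Thus the group did not move one way.

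**Figure D1:**
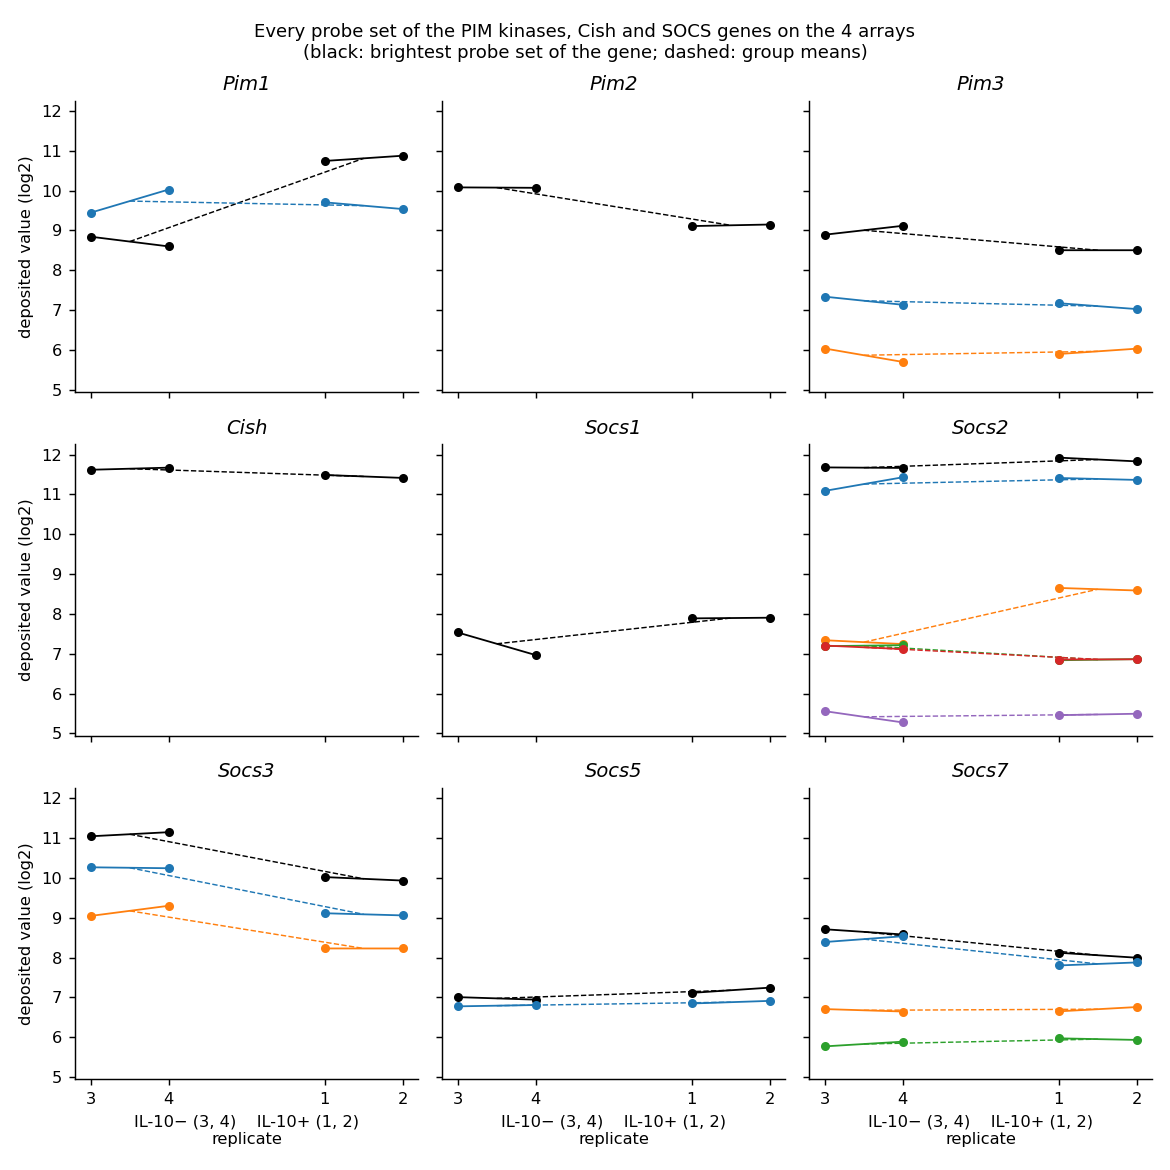
Deposited values (log2, vertical axis) of all 23 probe sets on the IL-10− arrays (replicates 3 and 4) and the IL-10+ arrays (replicates 1 and 2), 1 panel per gene, with the brightest probe set in black, the others in colour and dashed lines between group means. The black line of Pim1 rises from 8.72 to 10.81 while its other probe set stays between 9.45 and 10.03, and all 3 lines of Socs3 fall.

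Taking the brightest probe set of each PIM kinase, Pim1 was higher in IL-10+ cells, and Pim2 and Pim3 were lower. Pim1, the founding member and a classical target of STAT5 and STAT3, read 10.74 and 10.88 in IL-10+ and 8.84 and 8.60 in IL-10− samples with its brightest probe set, which is annotated with the Pim1 mRNA. The difference was 2.09 (standard error 0.09), which is 4.25-fold if the values are log2, and the groups lay far apart relative to their spread (SD 0.09 and 0.17, n = 2 each). The other Pim1 probe set, which has no accession in the annotation, did not show it. It read 9.71 and 9.54 in IL-10+ and 9.45 and 10.03 in IL-10− samples, a difference of -0.12 (standard error 0.17), and the groups overlapped. Its IL-10− replicates 3 and 4 lay on either side of both IL-10+ samples, so the difference was 0.18 without IL-10− replicate 4 and -0.41 without replicate 3, the latter past the threshold. Neither probe set is dim: they stood at the 92.2 and 91.8 percentile of all probe sets by mean level. The level of the first minus that of the other was 1.04 and 1.34 in IL-10+ samples. In IL-10− samples it was -0.60 and -1.43, so the first is the brightest only through the IL-10+ group, and this choice depends on the contrast itself. Averaged over both, Pim1 differed by 0.99. Of 4694 other genes with 2 probe sets, 10 (0.213%) had differences at least as far apart as the 2.20 between those of Pim1. The median gap was 0.18. A gap this large needs a large difference in at least 1 probe set, and Pim1 was picked with this contrast known. The share is therefore a description only. RefSeq also lists a second gene, Gm26885, that overlaps Pim1, and which strand or transcript end each probe set reads was not analysed here.

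Pim2, a PIM kinase best known from lymphoid cells, had 1 probe set, which read 9.11 and 9.15 in IL-10+ and 10.08 and 10.07 in IL-10− samples. This was a difference of -0.95 (standard error 0.06), or 1.93-fold, with the narrowest spread among the brightest probe sets of the IL-10− group (SD 0.01, n = 2). It was the second largest fall among the brightest probe sets of the 9 genes. On the same arrays the plasma cell markers Igha (-5.45), Jchain (-2.75), Mzb1 (-2.75) and Sdc1 (-0.31) fell, Prdm1 rose (0.39) and Xbp1 did not pass (-0.03), and their part in the difference of Pim2 was not tested.

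Pim3, the member best known from tissues with high energy use, gave a mixed reading. Its brightest probe set stood at 8.50 and 8.50 in IL-10+ and at 8.89 and 9.12 in IL-10− samples, a difference of -0.50 (standard error 0.08). That probe set carries the mark x, which the manufacturer gives where probes may match other transcripts. The probe set without this mark read 7.17 and 7.03 against 7.34 and 7.13, with overlapping groups and a difference of -0.14 (standard error 0.09). The dimmest, below the median level of all probe sets and also marked x, differed by 0.10 (standard error 0.11). Averaged over the 3, Pim3 differed by -0.18. RefSeq lists a gene, Gm33049, that overlaps Pim3.

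All 3 probe sets of Socs3 were lower in IL-10+ cells. The brightest read 10.02 and 9.93 in IL-10+ and 11.04 and 11.15 in IL-10− samples. Its difference was -1.12 (standard error 0.07), or 2.17-fold. The second probe set read 9.11 and 9.06 against 10.26 and 10.24, a difference of -1.17 (standard error 0.06). The third, the only one without the mark x, read 8.23 and 8.23 against 9.04 and 9.30, a difference of -0.94 (standard error 0.09). In none of them did the groups overlap, and the gap between the largest and the smallest difference was 0.22, where 66.9% of the 2365 other genes with 3 probe sets had a gap at least as large. With each array left out in turn, and under both other normalizations, the 3 differences stayed between -1.24 and -0.82.

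The promoters of Pim1 and Socs3, the genes at the ends of the range, are shown for the STAT site TTCNNNGAA. The windows searched are the 250 bases before the RefSeq start in GRCm38.p6, for Pim1 chr17:29490535-29490784 on the + strand and for Socs3 chr11:117969367-117969616 on the - strand. The Pim1 window is printed whole. The span that RefSeq gives for Socs3 reaches beyond the start used, so of that window the match is printed with 10 bases on each side, with the match in capitals:
Pim1: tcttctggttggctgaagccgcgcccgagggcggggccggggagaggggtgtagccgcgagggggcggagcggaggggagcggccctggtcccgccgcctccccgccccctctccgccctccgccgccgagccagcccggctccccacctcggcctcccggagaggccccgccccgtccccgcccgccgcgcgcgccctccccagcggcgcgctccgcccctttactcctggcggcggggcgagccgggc
Socs3: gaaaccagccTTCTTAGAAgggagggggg
The Socs3 window holds TTCTTAGAA, 154 to 146 bases before the start, and the Pim1 window holds no match. This motif and the STAT6 spacing, with 4 bases in place of 3 between TTC and GAA, were searched in 7 windows of 6 members (Pim1 with 2 starts, Pim2, Pim3, Cish, Socs1 and Socs3). Both patterns read the same on either strand. The Socs3 site was the only match to either, in 1 of 6 members. Over all 32851 windows of this length, 7.02% hold the first motif and 5.85% the second. No match says only that these letters are not in the window. The window of Pim1 shown here is 82.4% G and C and that of Socs3 71.6%, against a median of 52.4% over all windows. Socs2, Socs5 and Socs7 were not searched.

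Cish and Socs2, the SOCS family members most closely tied to STAT5, were among the brightest probe sets of the arrays in both groups and did not pass by their brightest probe sets. Cish, the first member found, read 11.49 and 11.41 in IL-10+ and 11.62 and 11.67 in IL-10− samples. The groups did not overlap, but the difference was small at -0.19 (standard error 0.07), and it did not pass. It was -0.03 after quantile normalization and -0.27 after median centring, and it passed under 4 alternatives: median centring, without dim probe sets, with trend and robust estimation, and without IL-10− replicate 3. Socs2, which also restrains growth hormone signalling, was at 11.92 and 11.83 against 11.68 and 11.66 with its brightest probe set, a difference of 0.20 (standard error 0.07), which did not pass. It was 0.34 after quantile normalization and 0.13 after median centring, and it passed under 4 alternatives: quantile normalization, without dim probe sets, and with trend estimation alone or with robust estimation added. The second brightest read 11.41 and 11.36 against 11.09 and 11.43, overlapped between groups and differed by 0.13 (standard error 0.11). These 2 are annotated with the Socs2 mRNA.

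The dimmer probe sets of Socs2, annotated with single cDNA reads, went apart from those of its mRNA and from each other. The brightest of these read 8.65 and 8.59 in IL-10+ and 7.34 and 7.24 in IL-10− samples, a difference of 1.33 (standard error 0.07), or 2.51-fold, the largest of any SOCS probe set in either direction. In contrast, the next one read 6.84 and 6.87 against 7.19 and 7.21, a difference of -0.35 (standard error 0.06). Similarly another read 6.85 and 6.86 against 7.20 and 7.12, a difference of -0.30 (standard error 0.07), which did not pass without IL-10+ replicate 1 or 2. The dimmest, at 5.46 and 5.49 against 5.56 and 5.28, overlapped between groups and lay at the 7.7 percentile of all probe sets. The differences of the 6 probe sets thus spanned 1.68, and 17 of 243 other genes with 6 probe sets (7.0%) spanned at least as much, with a median of 0.71. Averaged over all 6, Socs2 differed by 0.18. RefSeq lists a gene, Gm33230, that overlaps Socs2.

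**Figure D2:**
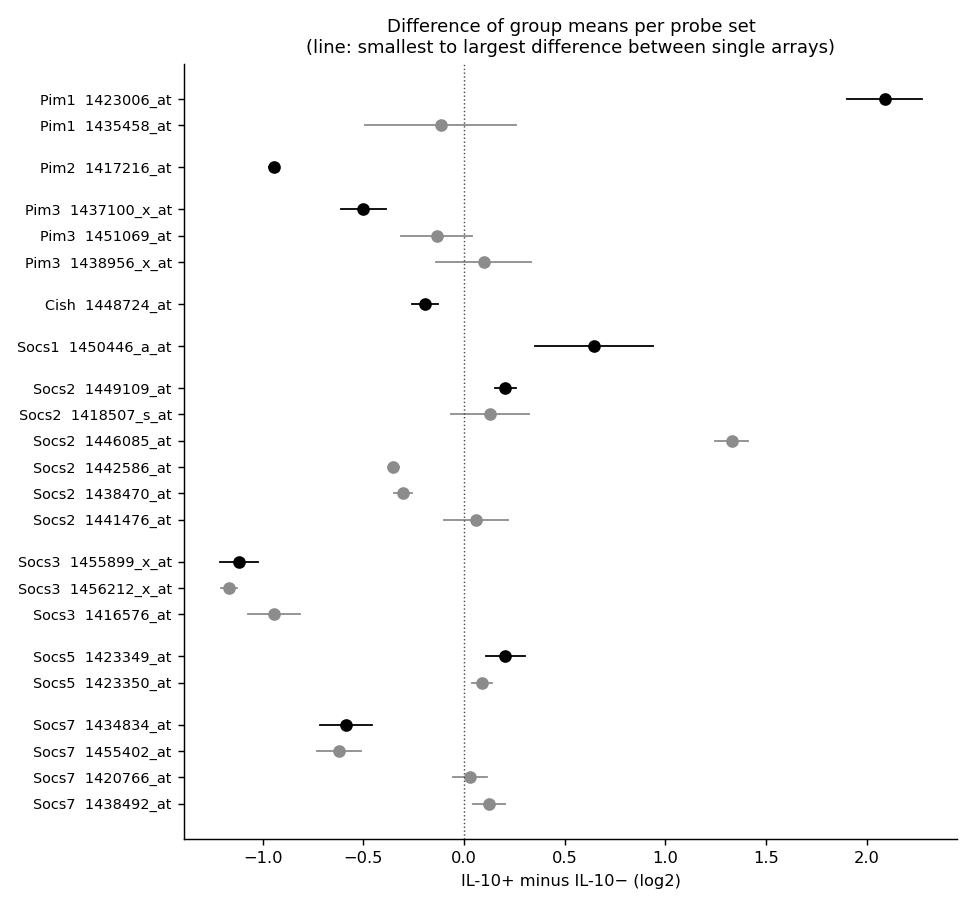
Difference between group means (IL-10+ minus IL-10−, log2, horizontal axis) for each of the 23 probe sets, brightest in black, with a line from the smallest to the largest difference between single arrays of the groups. The points of Socs3 lie together at -0.94 to -1.17, whereas those of Pim1 lie at 2.09 and -0.12 and those of Socs2 reach from -0.35 to 1.33.

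Socs1, the family's strongest inhibitor of JAK kinases and a brake on interferon and IL-2 signals, was higher in IL-10+ cells. Its probe set read 7.89 and 7.90 in IL-10+ and 7.53 and 6.97 in IL-10− samples. The IL-10+ samples were nearly equal (SD 0.01, n = 2), while the IL-10− samples were far apart (SD 0.40, n = 2), the widest spread of the brightest probe sets of the 9 genes. The difference was 0.65 (limma's standard error 0.16, while the pooled SD within groups was 0.28). It was 0.36 without IL-10− replicate 4 and 0.93 without IL-10− replicate 3, so its size rests on single arrays. The sign was positive in every comparison of an IL-10+ with an IL-10− array.

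Socs5 and Socs7 belong to the family members with a long part before the SH2 domain, and they are less well understood than the others. Socs5 differed little, with 7.11 and 7.24 against 7.01 and 6.94 for its brighter probe set, a difference of 0.20 (standard error 0.07), and 6.85 and 6.91 against 6.77 and 6.81 for the other, a difference of 0.09 (standard error 0.06). For Socs7, the brighter pair of its 4 probe sets was lower in IL-10+ cells. The brightest read 8.12 and 7.99 against 8.71 and 8.58, a difference of -0.59 (standard error 0.08), and the second 7.80 and 7.88 against 8.39 and 8.53, a difference of -0.62 (standard error 0.07). The dimmer pair did not go along, with 6.65 and 6.76 against 6.71 and 6.64 (0.03, standard error 0.07) and 5.97 and 5.93 against 5.77 and 5.89 (0.12, standard error 0.07). Averaged over all 4, Socs7 differed by -0.26.

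**Figure D3:**
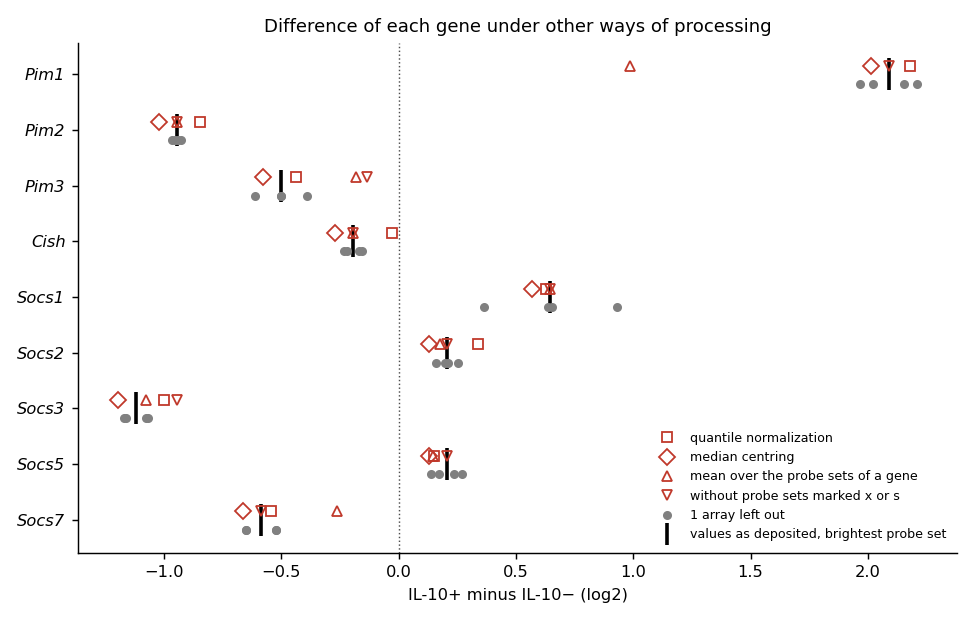
Difference of each gene (IL-10+ minus IL-10−, log2, horizontal axis) with the values as deposited and the brightest probe set (black bar), after other normalizations or another choice of probe sets (red symbols) and with 1 array left out (grey points). All 9 genes stay on 1 side of 0. For the grey points this was fixed beforehand, since the groups do not overlap in any of the 9 brightest probe sets. Dimmer probe sets with the opposite sign, as in Pim1 and Socs2, are not drawn singly. The largest move is that of Pim1 from 2.09 to 0.99 when its probe sets are averaged.

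The other genes of the pathway were taken from 10 lists of 84 genes, of which 81 were measured. A gene was counted as passing by limma's adjusted p over all probe sets for its brightest probe set. In IL-10+ cells 16 of the 81 rose, 34 fell and 31 did not pass, with a median difference of -0.10. Over all genes 8.37% rose and 22.9% fell, with a median of -0.01. At most 1 gene of each list lay below the median level of all probe sets, so all genes are not a like background. With probe sets below that level left out, 5014 of 22519 probe sets rose and 7151 fell. The lists were written with earlier results of these data known, so these counts are a description and not a test of the lists.

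Cytokine receptor chains went both ways, with 5 of 18 higher and 4 lower (median -0.05). These counts were 3 and 2 without IL-10+ replicate 1, 3 and 3 without IL-10+ replicate 2, and 4 and 7 after median centring. Il12rb2, a chain of the IL-12 receptor, rose the most (1.49, standard error 0.08, adjusted p = 2.27e-05 from limma). The receptor chains Il10ra (-0.69) and Il4ra (-0.67) fell. Il4ra had another probe set at 1.04, and averaged over its 3 it differed by -0.02, while Il10ra differed by -0.28 when averaged. Il2ra, which encodes CD25, the marker used to isolate the cells of both groups, did not pass (-0.22, standard error 0.09, limma adjusted p = 0.12).

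Genes of the kinases and STAT factors were mostly lower, again by their brightest probe sets. Of the 4 JAKs, 3 fell and 0 rose (median -0.39): Jak2 (-0.49), Jak1 (-0.39) and Tyk2 (-0.38). All 6 STAT genes measured passed, 2 upwards and 4 downwards (median -0.64). Stat5b fell from 9.95 to 8.64 (-1.32, standard error 0.07, adjusted p = 2.02e-05 from limma) and Stat5a from 10.02 to 9.27 (-0.75). Stat3 rose from 11.01 to 11.71 (0.70, standard error 0.08, adjusted p = 0.000629 from limma). For several of these genes the probe sets disagreed: Jak1 had another one at 2.41, Stat5a one at 0.64, Stat5b one at 0.00, and Stat3 one at -0.90. Averaged over their probe sets, Jak1 differed by 0.55 and Stat3 by -0.20, both past the threshold in the opposite direction, while Stat5b still fell (-0.66) and Stat5a, Jak2 and Tyk2 did not pass (-0.05, -0.08 and -0.09). With averaged probe sets, 1 JAK rose and 0 fell, and 0 STAT genes rose and 3 fell. Without IL-10− replicate 3, 1 JAK rose and 3 fell.

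Other inhibitors of JAK-STAT signalling had 6 of 11 lower and 0 higher (median -0.27), led by the adaptor Sh2b3 (-0.59), the STAT inhibitor Pias3 (-0.53) and the phosphatase SHP-1, encoded by Ptpn6 (-0.46). The brightest probe set of Ptpn6 carries the mark x, and without such probe sets Ptpn6 did not pass (-0.10). Ptpn6 and Tyk2 did not pass without IL-10+ replicate 1. Averaged over its probe sets, Sh2b3 still fell (-0.23) and Pias3 did not pass (-0.10). The number of inhibitors that fell was 3 without IL-10+ replicate 1, and 2 inhibitors rose without IL-10− replicate 4. Of the remaining SOCS genes, Socs6 rose (0.41, standard error 0.06, adjusted p = 0.002 from limma, and 0.21 averaged over its probe sets) and Socs4 did not pass (-0.08). The subunits of the ligase that SOCS boxes recruit had 3 of 5 lower and 1 higher (median -0.23), but 0 lower without IL-10+ replicate 1 or 2 and 1 lower after quantile normalization. Rbx1, a RING protein of cullin ligases, rose (0.43), Rnf7 of the same list did not pass (-0.12), and the elongins Eloc (-0.33) and Elob (-0.30) fell. Averaged over their probe sets, Elob still fell (-0.44) and Eloc did not pass (-0.08). Neither elongin passed when the arrays were quantile normalized or when either IL-10+ array was left out, and Rbx1 did not pass without IL-10+ replicate 2. Of 6 other SOCS box proteins, 1 fell, Spsb1 (-0.60, but 0.01 averaged over its 4 probe sets), and 5 did not pass (median 0.00).

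Downstream of the receptors, STAT5 targets had 2 of 11 higher and 6 lower (median -0.22), but 0 higher after median centring or without IL-10+ replicate 1, IL-10+ replicate 2 or IL-10− replicate 3. Bcl2, an inhibitor of apoptosis (-0.76), and the cytokine genes Osm (-0.73) and Lta (-0.73) fell the most. STAT3 targets had 3 of 7 higher and 1 lower (median 0.01), but 1 higher without IL-10+ replicate 2 and 2 lower after median centring or without IL-10− replicate 3. Maf, a factor that drives Il10 transcription, rose by 0.73 (3 of its 6 probe sets rose and 2 fell) and Batf by 0.37, although Batf did not pass without IL-10+ replicate 2, and Bcl3, a nuclear partner of NF-kB, fell (-0.98). Among 12 substrates of PIM kinases, 2 rose and 6 fell (median -0.19). Foxo1, a factor of resting T-cells, fell (-1.02), as did the stress kinase Map3k5 (-0.57), and both still fell, by smaller amounts, when averaged over their probe sets (-0.41 and -0.28). The cell cycle inhibitor Cdkn1b rose (0.75). These are levels of transcripts, and phosphorylation was not measured.

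**Figure D4:**
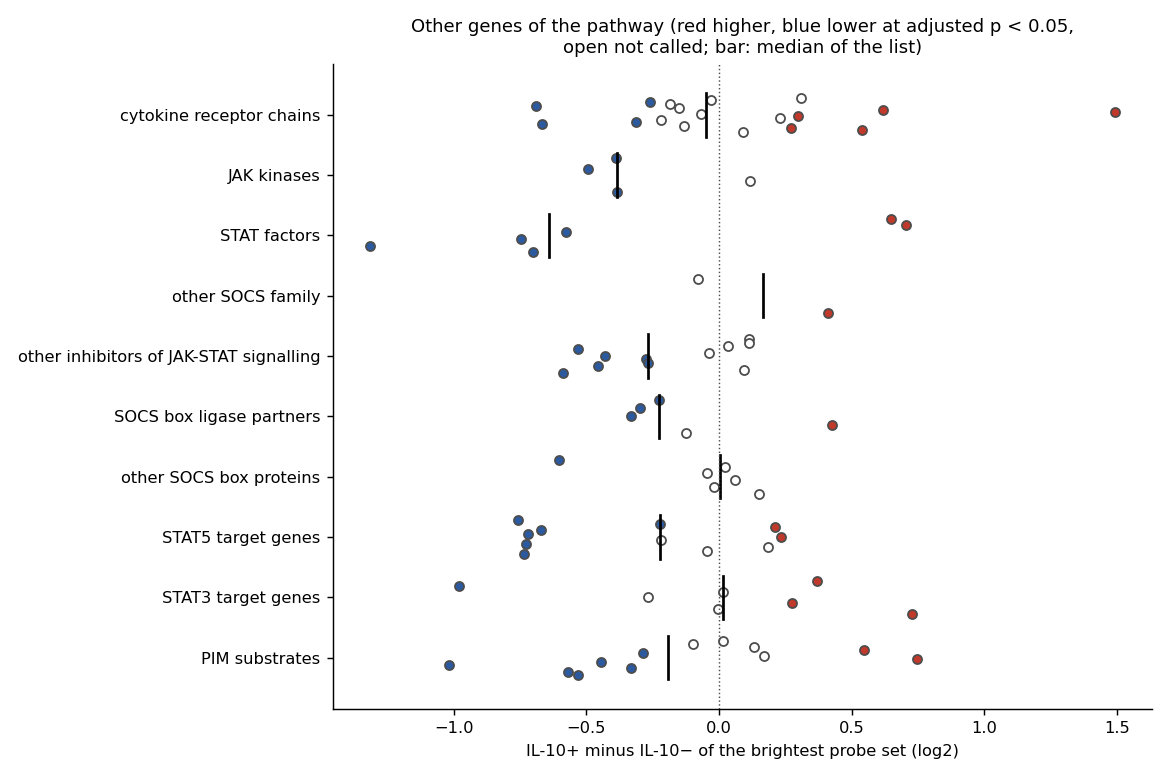
Difference of the brightest probe set (IL-10+ minus IL-10−, log2, horizontal axis) for each measured gene of the 10 pathway lists, red where it rose and blue where it fell at an adjusted p under 0.05, open where it did not pass, with a bar at the median of each list. All 6 STAT genes are filled, 4 of them on the left, and Il12rb2 lies farthest to the right at 1.49.

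The 3 genes whose brightest probe sets followed Pim1 most closely over the 4 arrays were Ppp4c, Rab27a and Prf1, at Euclidean distances of 0.09, 0.13 and 0.13 between values centred on the mean of each gene. They differed by 2.03, 2.19 and 1.96 between the groups. For Socs3 they were Tmem64, Sh3bp5 and Hipk2, at distances of 0.02, 0.02 and 0.04, with differences of -1.13, -1.13 and -1.15. With 4 arrays in 2 groups, such a pattern holds little beyond the difference between the groups and the spread of single arrays.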

How the data were processed

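Total RNA of the sorted T-cells was hybridized to Affymetrix arrays. The authors normalized signal intensities by variance stabilization in Bioconductor, and the deposited values, 1 for each probe set on each array, were read here as log2. How probes were summarized is not given in the sources used here, nor is the log base, and a legend of the study gives ratios as natural logs, so fold changes hold only for log2. Variance stabilization compresses dim values.

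Leaving aside 64 control probe sets, the groups were compared with limma (version 3.58.1, R 4.3.3; lmFit, eBayes, two-sided) over 45037 probe sets with p-values adjusted after Benjamini and Hochberg. This step was tested on simulated data drawn from limma's own fitted model, which checks the code and not the calls made on these arrays. Figures were drawn with matplotlib 3.10.9. The 4 arrays limit the precision. With 2 against 2, an exact permutation test of 1 gene cannot go below p = 0.333, so none was run.

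The annotation of the platform, possibly outdated, gives 1 gene for 34958 probe sets and several for 932, and 9211 are not listed. By gene identifier 34754 probe sets matched RefSeq, and 0 symbols changed. Promoters are from RefSeq (GRCm38.p6). Proteins were not analysed here.

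Members and lists were chosen with earlier results of these data known. Named were all members, up to 3 passing genes per pathway list by size, and the 3 genes most like Pim1 and Socs3. Il2ra, Ctla4, Foxp3, Socs4, Rnf7, Igha, Jchain, Mzb1, Sdc1, Prdm1 and Xbp1 were named after their values were seen. Alternatives covered normalization (quantile, centring on the median), the exclusion of dim probe sets, the eBayes prior (trend, robust), each array left out, the limits used in the study, and the choice of probe sets (averaged, or without marks x and s).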

Additional observations from a re-analysis of the deposited data

How the results depend on the processing

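Leaving out dim probe sets or changing the eBayes prior cannot change a difference. Leaving out 1 array cannot turn a sign where the groups do not overlap, as for 17 of the PIM and SOCS probe sets. Only the normalizations could have turned those. Of all 23 probe sets of the PIM and SOCS genes, 18 kept their sign in every alternative fit that included them. The 5 others differed by -0.12 to 0.13. The number of these probe sets called was 3 to 5 higher and 8 to 11 lower with single arrays left out (5 without IL-10− replicate 3), and 2 and 2 at an adjusted p under 0.001 and at least 2-fold. The median difference of the 9 genes was -0.19, and it was -0.027 after quantile normalization, -0.27 after median centring and -0.23 to -0.16 with single arrays left out. Over all probe sets, 6133 were higher and 7307 lower, with 3994 to 7427 and 4676 to 8192 when single arrays were left out (fewest without IL-10+ replicate 2 and replicate 1, respectively), and 775 and 259 under the stricter limits. After median centring it was 4668 and 10076. For the pathway genes, 9 to 21 rose and 22 to 36 fell with single arrays left out, against 16 and 34 (fewest without IL-10+ replicate 2 and replicate 1, respectively). Averaging turned Jak1 to 0.55, Stat3 to -0.20 and Spsb1 to 0.0096, which follows from their dimmer probe sets. No paired analysis was possible because the groups share no replicate numbers. With 1 array left out, the lone sample of a group is assumed to vary like the other group. Arrays give no depth, and 3 member probe sets lay below the median level.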
